A study of Mus musculus with 14 samples.

Results

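The regions described here are the CUT&RUN peaks that lie against the start of a mouse chromosome, where the assembled sequence begins beside the centromere. They were taken by position: every peak on chromosomes 1 to 19, X or Y whose start in the deposited list lies below 3.3 Mb. The 5 lists gave 256 such peaks of 1529 in all (16.7%). Peaks that overlap by at least 1 bp were joined across lists into regions, and the 256 peaks formed 75 of the 551 regions (13.6%). The first base of any of them is 3000022 and the last is 3259124, on mm10. A stretch on chromosome 9 from 3000022 to 3038309 holds 23 of the 75 regions and is called the chromosome 9 block below. It is known as major satellite sequence, but no repeat annotation or genome sequence was used here, so only its position was checked.

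Mouse chromosomes have their centromere at one end, and the assembly opens most of them with a run of unknown bases that stands for it. Next to the centromere lie long arrays of the major satellite repeat, packed as constitutive heterochromatin. The assembly holds few copies of such arrays, so reads from many copies can pile up on the few that are present. In CUT&RUN an antibody directs a nuclease to the protein it recognises, and the DNA cut free around that protein is sequenced. The antibody was against retinoic acid receptor alpha (RARα), a nuclear receptor that pairs with a retinoid X receptor (RXR) on DNA and binds 2 AGGTCA-like half-sites.

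All groups were cultures of 266-6, a mouse pancreatic acinar cell line, kept for 24 h in stripped medium before 24 h of ligand or vehicle. The labels name 14 samples: 3 with DMSO (the vehicle), 3 with 9-cis retinoic acid (a ligand of both receptor families), 2 with AM580 (an RARα agonist), 3 with CD3254 (an RXR agonist) and 3 labelled AM+CD, which the labels do not spell out. Doses were not given in the sources used here. All samples of a treatment point to the same peak list, so each treatment has 1 list and differences between lists have no replicate check. Peak names carry a tag that ends in 1 in every list, and whether a list came from 1 sample, from pooled reads or from merged calls was not given in the sources used here. A missing peak means only that none is listed there. Depth was read as the background coverage of each call, lowest with 9-cis retinoic acid (0.544 fragments per base) and AM580 (0.985), then DMSO (1.32), AM+CD (2.13) and CD3254 (2.36). Where 5 values follow each other below, their order is always DMSO first, then 9-cis retinoic acid, then AM580, then CD3254 and last AM+CD. The lists held 286, 200, 323, 493 and 227 peaks in this order.

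The sequence of the regions themselves was not used here. RefSeq (GRCm38.p6) has 1 microRNA and 2 promoter windows within 1000 bp of a region, and these are shown because no other sequence this close was at hand. No region overlapped a promoter window. The microRNA gene Mir101c (chromosome 9, 3038669 to 3038743) begins 360 bp after the last region of the block. It is the first gene on that chromosome among the RefSeq genes used here. Its mature product is encoded on the minus strand at chr9:3038680-3038698, with the seed (bases 2 to 8) in capitals:
mmu-miR-101c: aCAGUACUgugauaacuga
Each promoter window runs from 250 bases before to 50 bases after the start of a gene. They were searched on both strands for the half-sites AGGTCA and AGTTCA and for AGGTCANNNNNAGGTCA, a direct repeat that contains the first of these. The window of the lncRNA gene Gm33862 (chr11:3136826-3137125, plus strand) ends 38 bp before a region held by CD3254 alone and contains none of the 3:
Gm33862: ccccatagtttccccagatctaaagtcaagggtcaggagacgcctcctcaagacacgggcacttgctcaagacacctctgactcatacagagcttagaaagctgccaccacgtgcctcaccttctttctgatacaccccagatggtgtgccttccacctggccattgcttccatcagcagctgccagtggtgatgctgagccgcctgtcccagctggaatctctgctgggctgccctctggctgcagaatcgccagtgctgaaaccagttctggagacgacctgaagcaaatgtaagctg
The window of the lncRNA gene LOC115490388 (chr6:3182866-3183165, plus strand) ends 717 bp before a region held by AM580 alone and contains 1 AGTTCA, in capitals:
LOC115490388: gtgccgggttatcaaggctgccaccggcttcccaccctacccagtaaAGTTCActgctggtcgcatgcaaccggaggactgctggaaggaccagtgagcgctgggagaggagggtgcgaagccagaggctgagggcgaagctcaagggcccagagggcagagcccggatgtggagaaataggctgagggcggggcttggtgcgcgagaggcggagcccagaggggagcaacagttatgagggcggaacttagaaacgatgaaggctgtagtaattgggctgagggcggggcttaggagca
Of 32851 promoter windows of this length, 16.3% held AGGTCA, 14.0% held AGTTCA and 0.00913% held the direct repeat. These matches describe letters only.

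Peaks at chromosome starts made up a similar share of every list. The share was 53 of 286 peaks with DMSO (18.5%, 95% Wilson interval 14.5 to 23.4), 32 of 200 with 9-cis retinoic acid (16.0%, 11.6 to 21.7) and 53 of 323 with AM580 (16.4%, 12.8 to 20.8). It was 75 of 493 with CD3254 (15.2%, 12.3 to 18.7) and 43 of 227 with AM+CD (18.9%, 14.4 to 24.5). The intervals of all 5 overlapped one another. Intervals here and below cover counting error only, and neighbouring peaks are not independent. When each list was cut to its 200 peaks of highest −log10 q, the CD3254 list kept 35 peaks at chromosome starts, DMSO 38, AM580 37, AM+CD 41 and 9-cis retinoic acid its 32. The larger number in the full CD3254 list thus went with its greater length.

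The regions were more often shared by all lists than regions elsewhere. All 5 lists held 29 of the 75 (38.7%, 28.5 to 50), against 129 of the 476 other regions (27.1%, 23.3 to 31.3) and 28.7% of all 551. The difference was 11.6 percentage points (Newcombe 95% interval 0.538 to 23.5). It rested on the chromosome 9 block: without it the share was 30.8%, and the difference of 3.67 points had an interval that included 0 (-7.96 to 17.7). Without the 9-cis retinoic acid list, the other 4 lists shared 39 of the 75 (52.0%), against 155 of the 452 other regions that these 4 lists gave (34.3%). That difference of 17.7 points (5.71 to 29.4) includes the block and was not recomputed without it. A single list held 18 regions (24.0%, 15.8 to 34.8), against 201 of the 476 others (42.2%, 37.9 to 46.7), a difference of -18.2 points (-27.6 to -6.60). Without the block a single list held 15 of 52 (28.8%), and the interval of the difference included 0 (-24.8 to 0.735). Of these 18, CD3254 alone held 17 (22.7% of the regions, against 29.6% of all 551) and AM580 alone held 1. DMSO, 9-cis retinoic acid and AM+CD held none alone. In all, CD3254 held 74 of the 75 regions, DMSO 53, AM580 53, AM+CD 43 and 9-cis retinoic acid 31.

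**Figure D1:**
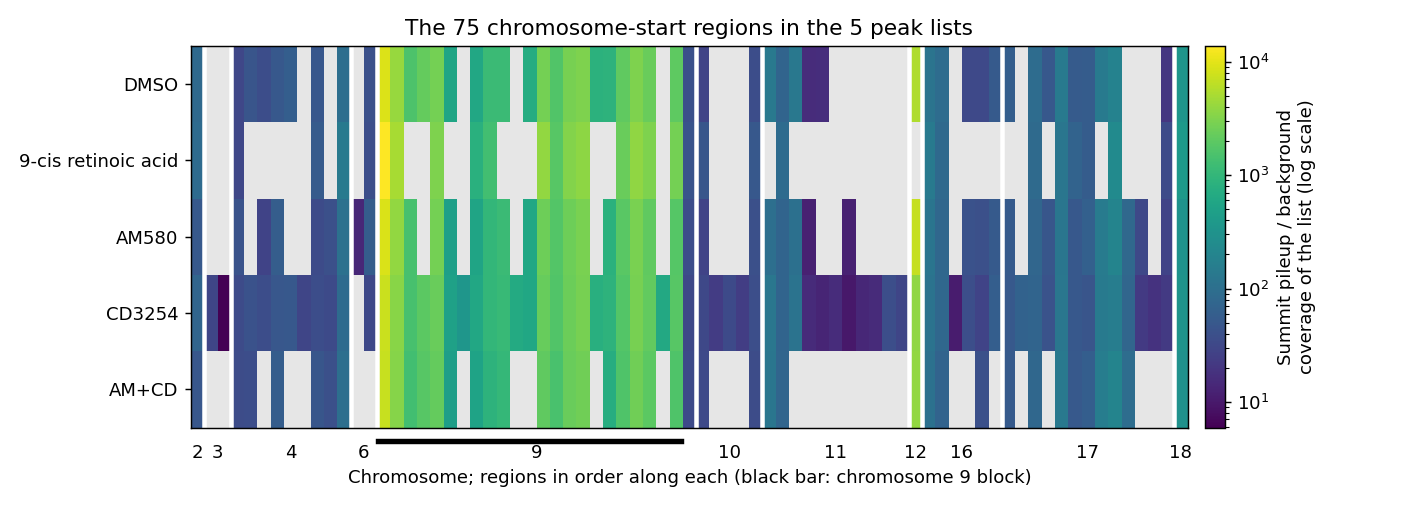
Summit pileup of each of the 75 regions (columns, in order along each chromosome) in the 5 lists (rows), divided by the background coverage of the list and coloured on a log scale. Grey cells have no listed peak, and the black bar marks the chromosome 9 block. The CD3254 row is filled in 74 of 75 columns and the 9-cis retinoic acid row in 31, and the highest values are in the block and in the single region of chromosome 12.

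The regions were not spread over all chromosomes. They lay on 11 of 21: 24 on chromosome 9, 13 on 17, 11 on 11, 9 on 4, 6 on 16, 5 on 10, 2 each on 3 and 6, and 1 each on 2, 12 and 18. On 8 of these chromosomes at least 1 region was in all 5 lists. Chromosomes 1, 5, 7, 8, 13, 14, 15, 19, X and Y had none in any list. On those 10, the lowest listed peak started between 3372793 on chromosome 13 and 90738040 on chromosome Y. Most regions lay ahead of the RefSeq genes used here, which leave out genes starting below 3 Mb except on chromosome Y. Of the 75, 53 (70.7%) ended before the first such gene of their chromosome. Among them were all 9 on chromosome 4, 12 of 13 on chromosome 17 and the 23 of the block. Other gene annotations were not examined, and the count has no comparison elsewhere because the regions were taken by position. The 3.3 Mb limit fell in a gap. Just inside it were a region on chromosome 9 (3258572 to 3259124, all 5 lists) and one on chromosome 16 (3235969 to 3236350, 3 lists). Just outside were 2 regions of chromosome 16 (3349514 to 3350537 and 3351031 to 3352045) and 1 of chromosome 13 (3372793 to 3374449), each in all 5 lists.

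The chromosome 9 block contained the deepest signal of the set. Its 23 regions carried 92 of the 256 peaks (35.9%, 30.3 to 42.0), or 20, 13, 18, 23 and 18 by list. The regions covered 37.1% of the block's 38288 bp. Signal between the listed peaks was not examined, so whether the block is 1 continuous raised stretch was not tested. The median local background of its peaks was 363 to 631 times the background coverage of the list. All 5 lists held 13 of the 23 (56.5%, 36.8 to 74.4), against 16 of the 52 regions outside the block (30.8%, 19.9 to 44.3), a difference of 25.8 points (1.86 to 46.6). When the 20 peaks of highest −log10 q were taken from each list, 9 or 10 were block peaks in every list.

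The first region of the block (3000022 to 3001540) began at the first bases of the assembled chromosome. Its summit pileup, the number of fragments stacked at the highest point, was 11991 with DMSO and 7516 with 9-cis retinoic acid. In the AM580 list it was 8789, and CD3254 and AM+CD had 17692 and 15134. It ranked first in the block in every list. Its fold, the deposited ratio of the summit to its local background, was 13.1, 12.7, 14.7, 12.5 and 13.0 in the same order. That ratio has a small constant added to both parts, as given with the processing below. A fold is relative to its own list and is not compared between lists. The second region (3001990 to 3002387) came second in every list, at 5508, 2742, 3914, 8340 and 7193 fragments. Among the other regions held by all 5, those starting at 3031738, 3025425, 3023390, 3017870, 3006400, 3034638 and 3037781 had DMSO pileups from 2682 to 4072. The remaining 4, starting at 3029455, 3019915, 3014009 and 3013149, had 2735, 2236, 1528 and 813.

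The order of the block's regions was nearly the same in each list. Over the 13 regions common to all, the rank correlation of summit pileups between 2 lists was 0.912 to 1.0 over the 10 pairs of lists. The points are the same 13 sequences in each list, and these values are a description. Outside the block the same values were 0.900 to 0.970 over the 16 regions common to all lists. The summits also fell at the same bases: in 19 of the 20 block regions held by at least 2 lists, the summits lay within 50 bp of each other, with a median spread of 12 bp. Outside the block this held for 18 of 37 regions (median 54 bp), and among the other regions of the series for 156 of 275 (median 41 bp).

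**Figure D2:**
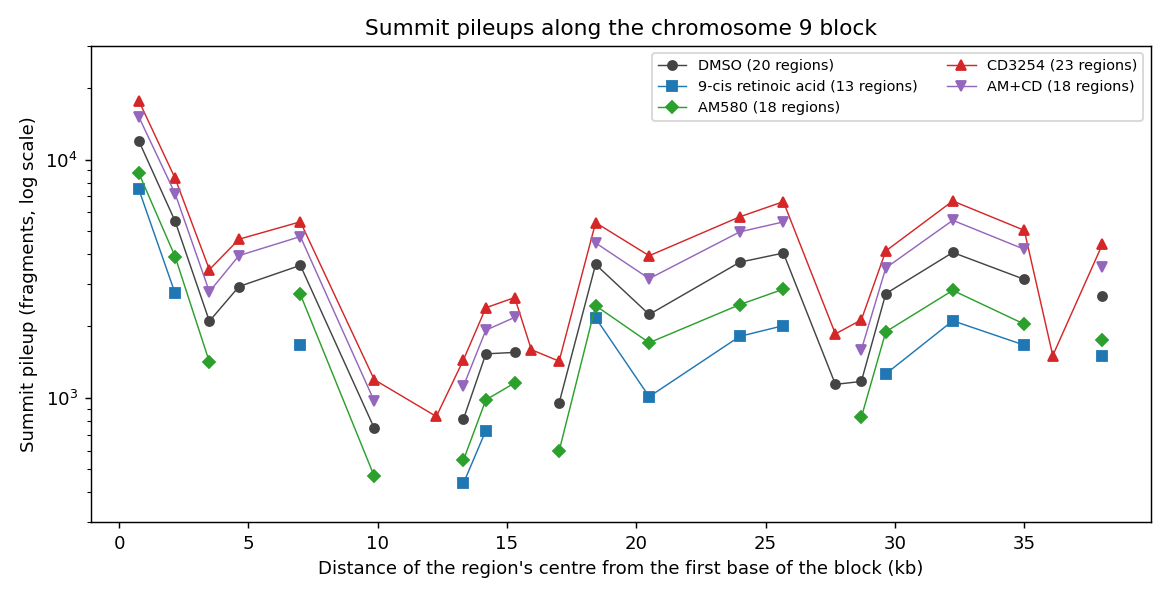
Summit pileup in fragments (log scale) of each region of the chromosome 9 block against the distance of its centre from the first base of the block in kb, with 1 line per list, broken where a region is not listed. The 5 profiles rise and fall together, from 7516 to 17692 fragments at the first region down to 437 with 9-cis retinoic acid at the region starting at 3013149 and 745 with DMSO at the one starting at 3009723.

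Pileups in the block tracked the depth of the lists. With 9-cis retinoic acid the 13 shared block regions had 0.498 times the DMSO pileup at the median (range 0.452 to 0.627), where the background coverages had a ratio of 0.410. With AM580 the median was 0.683 (0.628 to 0.761, 18 regions) against 0.744, and with CD3254 1.60 (1.48 to 1.81, 20 regions) against 1.78. With AM+CD it was 1.33 (1.23 to 1.41, 18 regions) against 1.61. Relative to depth, block pileups were above DMSO at the median in the 9-cis retinoic acid list and below it in the other 3. Outside the block the median ratios were 0.470, 0.729, 1.61 and 1.55, and among the other regions of the series 0.490, 0.780, 1.75 and 1.56. The lists have no replicates, so no test of these ratios was possible.

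Folds in the block were mostly low beside its pileups, and the local background there was high. The median fold of block peaks was 4.13, 4.61, 4.90, 3.62 and 4.69, against 8.66, 8.49, 8.09, 7.04 and 11.0 for the peaks away from chromosome starts. The first region of the block and the one at 3037781 (folds of 9.01 to 10.1) had the highest folds of the block in every list. The median local background of block peaks was 589, 343, 365, 905 and 772 fragments per base. At chromosome starts outside the block it was 14.7, 8.08, 11.0, 22.8 and 26.9, and among all other peaks 5.93, 3.30, 3.55, 5.84 and 9.98. Some peaks away from chromosome starts also had a high local background. With DMSO it reached 3362 there, and one such peak had 593 fragments on a local background of 241.4. The lowest fold in the block was 1.39, in the DMSO and CD3254 lists at 3027554 to 3027891, on 1138 and 1853 fragments. Over all chromosome starts, the median fold was 5.29 with DMSO, and it was below that of the other peaks in every list. The median pileup of all chromosome starts was above that of the other peaks in every list, at 176 against 83 fragments with DMSO. This depended on the block. Outside it the median pileup was below that of the other peaks with DMSO (72 against 83), 9-cis retinoic acid (38 against 49.5) and AM+CD (128 against 166), and above it with AM580 (52 against 47) and CD3254 (88 against 55). No peak at a chromosome start stood on the background coverage of its list, out of 53, 32, 53, 75 and 43. Among the other peaks 12 of 233, 10 of 168, 17 of 270, 53 of 418 and 11 of 184 did, a small part of each list.

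**Figure D3:**
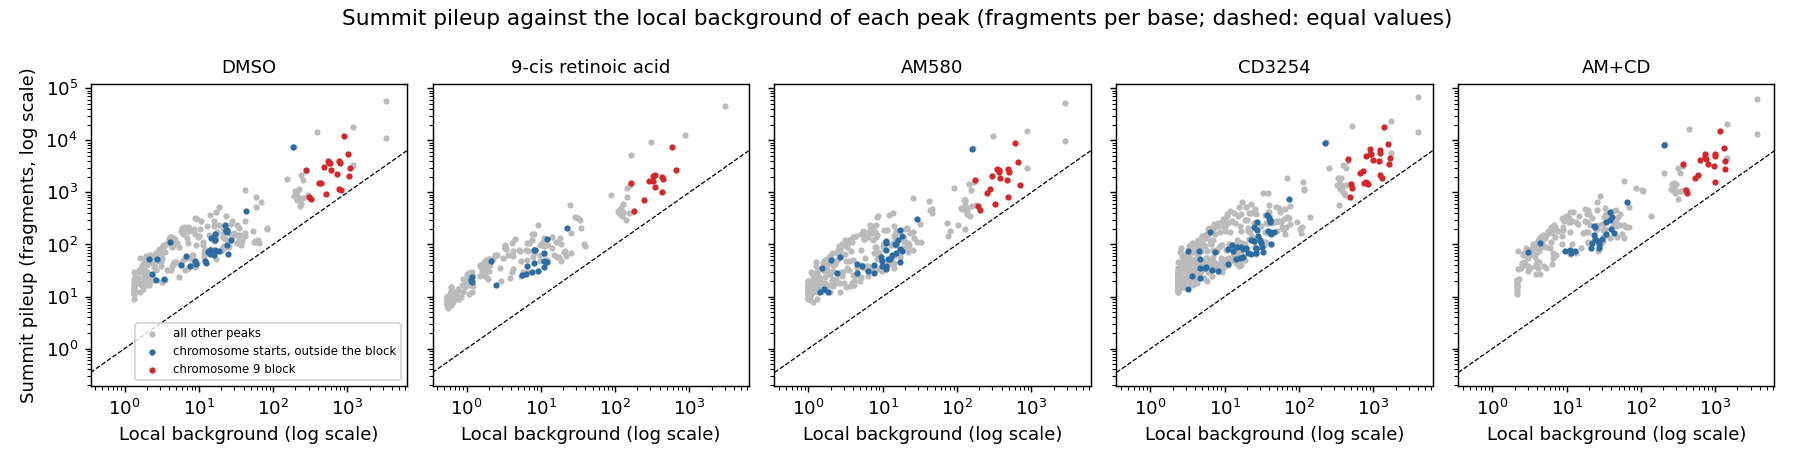
Summit pileup against local background (both in fragments per base, log scales) for every peak of each list, with the chromosome 9 block in red, other chromosome starts in blue and all other peaks in grey. The dashed line marks equal values. Block peaks lie at high local background (medians 343 to 905) and nearer to the line than most grey points, and the isolated blue point with a pileup of 6840 to 8962 in 4 lists is the region of chromosome 12.

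Outside the block, 1 region stood far above the rest. On chromosome 12 (3109872 to 3110215, more than 50 kb from any gene) the pileup was 7301 with DMSO and 6840 with AM580, and 8962 and 8312 with CD3254 and AM+CD. None was listed there with 9-cis retinoic acid. Its folds (38.9, 42.9, 39.6 and 40.3) were the highest at any chromosome start in each of the 4 lists. Apart from it, no pileup outside the block exceeded 445, 210, 305, 749 and 647 in the 5 lists.

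Those next highest pileups all belonged to the single region of chromosome 18 (3004259 to 3006765), which spans 2507 bp and lies 20136 bp ahead of the vomeronasal receptor pseudogene Vmn1r-ps151. Its folds were 10.1, 9.07, 10.4, 9.93 and 9.89. The single region of chromosome 2 (3050014 to 3050731) had pileups of 110, 49, 51, 175 and 105 and folds of 21.6, 15.8, 17.2, 23.7 and 19.7. Its local background, 4.13, 2.16, 2.03, 6.43 and 4.39 fragments per base, was far below that of the block, and no gene lies within 50 kb.

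The last region on chromosome 9 (3258572 to 3259124) lies outside the block, 22206 bp from the olfactory receptor pseudogene Olfr369-ps1, and had pileups of 52, 24, 36, 75 and 73. Its folds of 16.9, 11.4, 14.6, 18.0 and 18.3 were the highest on that chromosome start in every list except 9-cis retinoic acid and AM580, where the first block region had 12.7 and 14.7. This region and that of chromosome 2 show that high fold at chromosome starts also occurred on few fragments.

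Chromosome 17 carried the most regions after chromosome 9, and 5 of its 13 were in all lists. These start at 3010019, 3012860, 3020135, 3022387 and 3029792, each ahead of the pseudogene Gm10232. The one of highest fold (3029792 to 3030175) had pileups of 241, 130, 191, 370 and 416 and folds of 10.2, 9.86, 10.7, 9.61 and 10.5. A region beyond the others (3081592 to 3082404) lies in the span of the transcribed pseudogene Pisd-ps2 and was in every list but AM+CD, with folds of 8.47 to 9.27. It was chosen for mention after its values were seen.

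On chromosome 4, 3 of 9 regions were in all lists (starts 3050069, 3081731 and 3089560). The last 2 lie 21005 and 12479 bp ahead of the vomeronasal receptor pseudogene Vmn1r-ps2. The one of highest fold (3089560 to 3091220) had pileups of 131, 77, 105, 213 and 217. On chromosome 16 both regions at 3114415 to 3115616 and 3116221 to 3117118 were in all lists. The first, 24853 bp from the pseudogene Vmn1r-ps137, had the higher folds (8.86, 8.70, 9.81, 9.53 and 9.44), on 156, 78, 117, 267 and 227 fragments. On chromosome 10 the regions at 3109893 to 3110410 and 3116141 to 3116987 were in all lists, with folds of 3.81 to 6.33 and pileups of 26 to 89. The latter lies 819 bp from the pseudogene Gm3318.

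The smaller sets of chromosomes 3 and 6 were mostly in 1 or few lists. Both regions of chromosome 3 were in the CD3254 list alone, at 3011106 to 3011378 (71 fragments, fold 8.46) and 3137475 to 3137819 (14 fragments, fold 3.61). On chromosome 6 the region at 3201184 to 3201686, 2673 bp after the lncRNA gene LOC115490388, was in 4 lists. It had 52 fragments with DMSO and 21 with 9-cis retinoic acid, next to 58 with AM580 and 76 with CD3254, with folds of 14.3, 10.2, 16.1 and 14.1. The other, at 3183882 to 3184151 inside the span of LOC115490388, was the single region of the AM580 list alone. It rested on 14 fragments, with a fold of 5.72.

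Chromosome 11 was the one start with regions in a protein-coding gene. All 5 such regions lie in the span of Sfi1, a gene for a centrosome protein (chromosome 11, 3131850 to 3203347), and were chosen for mention after their values were seen. The CD3254 list held all 5, with pileups of 23 to 90 and folds of 2.14 to 5.71. AM580 held 1 of them (3132107 to 3132482), on 12 fragments, and the other 3 lists held none. Ahead of Sfi1 and of the transcribed pseudogene Pisd-ps1, the region at 3101084 to 3103070 was the sole one of this chromosome in all 5 lists. Its pileups were 97, 48, 70, 172 and 158 and its folds 3.95, 4.08, 4.46, 4.13 and 4.5. The highest fold of this start, at 3100379 to 3100684, was 7.41 with DMSO and 6.38 with AM580, while CD3254 and AM+CD had 7.27 and 7.61. None was listed with 9-cis retinoic acid.

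Genes near the regions were mostly pseudogenes. The nearest gene was a pseudogene for 42 of 75 regions (56.0%), against 96 of 391 other regions on the main chromosomes (24.6%), a difference of 31.4 points (19.3 to 42.8). For 13 regions that pseudogene was a Vmn1r vomeronasal receptor pseudogene, against 4 of the 391. These lay beside only Vmn1r-ps2 (all 9 regions of chromosome 4), Vmn1r-ps137 on chromosome 16 and Vmn1r-ps151 on chromosome 18. Neighbouring regions often shared the same nearest pseudogene, so the counts come from few places and the interval does not allow for this. Protein-coding spans held 5 regions (6.67%) against 113 of the 391 (28.9%), a difference of -22.2 points (-28.3 to -13.2). Some gene lay within 50 kb of 67 regions and a protein-coding gene within 50 kb of 17. The gene table gives spans without exons, so exon, intron and untranslated parts were not told apart.

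To ask which chromosome-start peaks each ligand list had beyond vehicle, its peaks were compared with the DMSO list. All 32 peaks of 9-cis retinoic acid met a DMSO peak (100%, 89.3 to 100), so 0 lacked one, against 13.5% of the whole list. With AM580 48 of 53 met DMSO (90.6%, 79.7 to 95.9) and 5 did not, against 23.2% of the list. With CD3254 53 of 75 did (70.7%, 59.6 to 79.8) and 22 did not, against 43.4% of the list. With AM+CD 41 of 43 did (95.3%, 84.5 to 98.7) and 2 did not, against 10.6% of the list. Compared with the other peaks of the same list, the share that met DMSO was higher by 16.1 points (4.33 to 22.4) with 9-cis retinoic acid, by 16.5 (4.63 to 24.2) with AM580 and by 16.6 (4.53 to 26.9) with CD3254. With AM+CD the difference was 7.31 points and its interval (-4.19 to 13.7) included 0. Without the block the differences were 16.1 points (-1.41 to 22.4), 11.6 (-4.21 to 21.4), 9.39 (-4.99 to 22.1) and 3.96 (-13.5 to 11.9) in the order of the 4 ligand lists, and all 4 intervals included 0. All 4 shares use the same DMSO list. In lists cut to 200 peaks the shares were 81.2% with 9-cis retinoic acid and 82.9% with AM+CD, next to 89.2% with AM580 and 91.4% with CD3254, so the lower share of CD3254 was not seen at equal list length.

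The regions of the CD3254 list alone rested on weaker peaks. Their −log10 q had a median of 12.9 (2.11 to 125). Outside the block there were 14, with a median pileup of 57 fragments (14 to 161), against 115 (23 to 8962) in the 37 regions that CD3254 shared with another list. The 5 of highest −log10 q were 3 in the block (3015772 to 3016158 with 1591 fragments, 3035961 to 3036296 with 1503 and 3012161 to 3012419 with 834), 1 on chromosome 17 (3008773 to 3009052, 161) and the first of chromosome 3. The CD3254 call also had the highest background coverage. The CD3254 summits of these 17 regions were scaled, pileup and local background alike, to the coverage of each other list. They would have passed the lowest −log10 p of that list at 15 for DMSO, at 7 for 9-cis retinoic acid, at 15 for AM580 and at 17 for AM+CD. Peak length was not scaled, and peaks left out after the call, described below, are a further limit for AM+CD. No such count is given for regions away from chromosome starts, so these counts cannot be called particular to chromosome starts.

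In the other direction, the ligand lists lacked different numbers of the 53 DMSO peaks. CD3254 lacked 0 (0.699% of the whole DMSO list), AM580 5 (9.43%, against 11.9%), AM+CD 12 (22.6%, against 28.0%) and 9-cis retinoic acid 22 (41.5%, 29.3 to 54.9, against 39.9%). The shares at chromosome starts were near those of the whole DMSO list in each case. The 5 of highest DMSO pileup that 9-cis retinoic acid lacked were the region of chromosome 12 (7301) and the block regions at 3004514 to 3004803 (2930), 3003345 to 3003682 (2096), 3015164 to 3015477 (1550) and 3028557 to 3028893 (1170). All but 3004514 also had an AM580 peak, and all 5 had CD3254 and AM+CD peaks.

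The DMSO peaks that 9-cis retinoic acid lacked were short. The 22 had a median length of 319 bp (260 to 746), while the 31 with a 9-cis retinoic acid peak had a median of 753 bp (347 to 2457). Of the 22, 16 were shorter than the shortest of the 31. Away from chromosome starts, 12 of 92 were shorter than the shortest DMSO peak with a 9-cis retinoic acid peak (279 bp). Such a count depends on the single shortest peak of a group. The peaks that AM+CD and AM580 lacked were also shorter at the median, though not all were short, and CD3254 lacked 0. The 12 without an AM+CD peak had a median of 319 bp (260 to 753) against 558 bp for those with one. The 5 without an AM580 peak had 319 bp (260 to 656) against 512 bp. Away from chromosome starts the same medians were 374 against 492 bp with AM+CD and 363 against 480 bp with AM580. Away from chromosome starts, DMSO peaks without a 9-cis retinoic acid peak had a median of 358 bp (92 peaks) against 541 bp (141 peaks). In the block the lengths did not overlap for 9-cis retinoic acid: the 7 DMSO peaks without a 9-cis retinoic acid peak were 281 to 324 bp long and the 13 with one were 366 to 1508 bp long. Pileup separated them less clearly, with medians of 1170 and 3596 fragments in the block, and the absent 3004514 region was deeper than 5 of the shared ones. The region of chromosome 12 was 313 bp long with DMSO and 310 with AM580, and CD3254 and AM+CD had 344 and 328 bp.

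The 9-cis retinoic acid list also had the longest minimum. Its shortest peak was 304 bp, against 254 with DMSO, 232 with AM580 and 249 with both CD3254 and AM+CD. Where a region was in both lists, the 9-cis retinoic acid peak was the shorter: its length was 0.949 times that of the DMSO peak at the median in the block, and below it in 13 of 13 regions. Over all chromosome starts it was the shorter in 28 of 30 (median ratio 0.946), and away from them in 115 of 140 (0.928). Shorter 9-cis retinoic acid peaks were thus not particular to chromosome starts. In the block the median ratio was 0.996 with AM580, and CD3254 and AM+CD had 1.02 and 1.01. MACS2 keeps a peak only above a minimum length, by default its fragment length. The setting used was not given in the sources used here, and the part of peak length in the absences was not tested. Of the DMSO peaks of at least 304 bp, 15 of 46 (32.6%) had no 9-cis retinoic acid peak, against 68 of 207 (32.9%) away from chromosome starts.

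**Figure D4:**
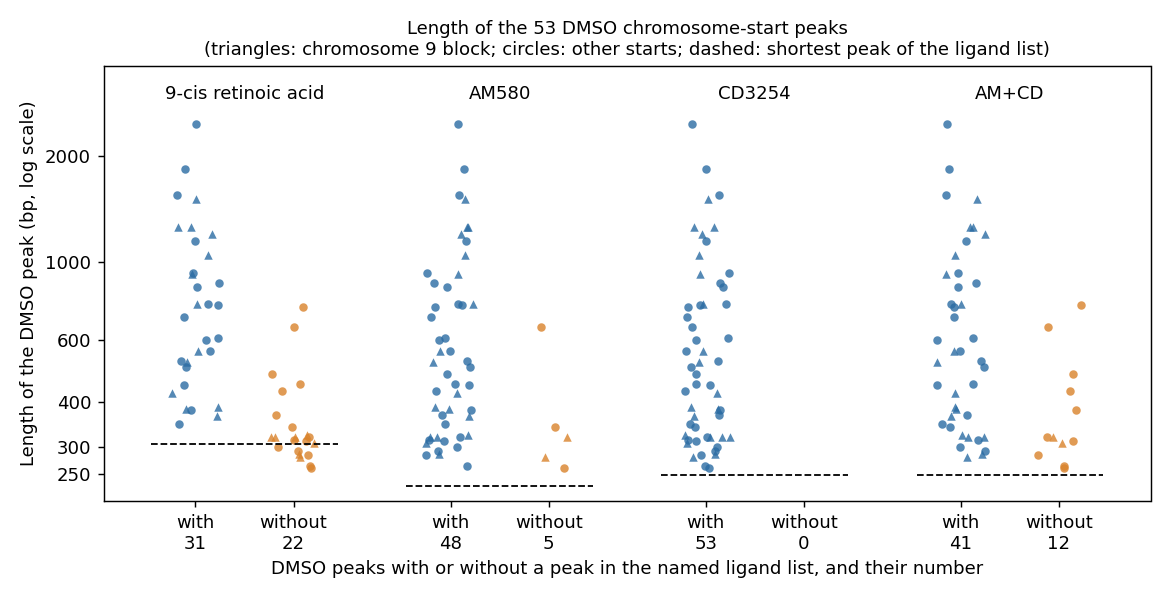
Length in bp (log scale) of each of the 53 DMSO peaks at chromosome starts, split for each ligand list into those with (blue) and without (orange) a peak in that list. Triangles are block peaks, circles other starts, and the dashed line is the shortest peak of the ligand list. The 22 peaks without a 9-cis retinoic acid peak have a median of 319 bp and the 31 with one a median of 753 bp.

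At most of these places the DMSO summit, scaled to the lower depth, stayed above the lowest −log10 p of the 9-cis retinoic acid list. Scaled to the 9-cis retinoic acid background coverage, 20 of the 22 DMSO peaks had a −log10 p above 5.70, the lowest in that list. At 3004514 the scaled value was 196 and at 3015164 it was 150, while at chromosome 12 it was 3506. Of the 43 regions that CD3254 held and 9-cis retinoic acid lacked, 26 had a CD3254 summit above this value when scaled in the same way, and 17 did not. Scaling assumes that pileup and local background change with depth in the same proportion. A summit above the lowest −log10 p need not give a listed peak, since peak length was not scaled. The part of depth in the absences was not tested, and no such count is given for peaks away from chromosome starts.

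Peaks removed after the call were bounded by the peak numbers, which run in genome order within each list and have gaps. A region absent between 2 listed peaks with consecutive numbers was not a numbered peak of that call. Of the 44 regions that the 9-cis retinoic acid list lacked, 34 were at such places, and at most 2 could have been removed. Of those 2, one could be the region of chromosome 12, since 2 numbers are missing between the last listed peak of chromosome 11 and the first of chromosome 12. In the block, 9-cis retinoic acid lacked 10 regions and no number was missing.

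The AM+CD list differed from this. Of the 32 regions it lacked, 0 were at a place without a missing number, and up to 29 could have been removed. Within the chromosome starts it had 13 missing numbers in 10 stretches between its own peaks, and in 8 of these the count of missing numbers equalled the count of regions that other lists held there. In the block its 5 missing numbers stood where the other lists held 5 regions (starts 3012161, 3015772, 3016885, 3027554 and 3035961). The AM580 list lacked 22 regions, 15 of them at places with no missing number. Its 3 missing numbers in the block stood where other lists held 1 region each, at 3004514, 3027554 and 3035961. The CD3254 and DMSO lists had no number missing in the block, and of the 22 regions that DMSO lacked at most 4 could have been removed. For up to 29 of 32 regions, absence from the AM+CD list cannot be told apart from a peak that was called and then left out, whereas with 9-cis retinoic acid this holds for at most 2 of 44. The whole lists differed in the same way. AM+CD kept 32.4% of its peak numbers (474 missing) and 9-cis retinoic acid 75.5% (65 missing). DMSO kept 63.1%, AM580 44% and CD3254 55.1%, so missing numbers were not particular to chromosome starts.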

How the data were processed

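RARα CUT&RUN was deposited as 1 peak list per treatment. Per the submitters' processing notes, reads on mm10 were handled with Bowtie2 2.5.1, MACS2 2.2.7.1, SAMtools 1.18, bedtools and FastQC. Step order, control, thresholds and rules for duplicate or multiply mapped reads were not given in the sources used here. A deposited fold is a ratio of summit to local background, taken here with 1 added to both. This makes it lower than the plain ratio, most of all where the local background is low. The deposited −log10 p and −log10 q rank peaks within a list, and the deposited score, 10 times the −log10 q, was not used.

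The whole-number pileup and the local background at a summit were solved from its fold and −log10 p. The largest relative error over the 1529 peaks was 1.23e-05 (tolerance 0.0002). On simulated data 500 of 500 summits were recovered. The lowest local background of a list served as its depth. Reads per library were not given in the sources used here. Shares have 95% Wilson intervals and differences of shares Newcombe intervals (Python 3.11.15, SciPy 1.17.1). No test between treatments was run.

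Gene spans were those of RefSeq for GRCm38.p6 (the assembly of mm10), 49603 genes on the main chromosomes. Genes starting below 3 Mb were left out, except on chromosome Y. The members, the rules and the alternatives were chosen with earlier results of these data known. The regions named were those in all 5 lists, the highest fold of each chromosome, regions of a single list (the 5 of highest −log10 q where over 10) and the 5 deepest DMSO regions without a 9-cis retinoic acid peak. Chromosomes with at most 2 regions were given in full, and genes were named as the nearest within 50 kb or as the span holding the region.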

Additional observations from a re-analysis of the deposited data

How the results depend on the processing

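Of 68 values recomputed under the alternatives, 57 kept within 1.5 times the count reported or within the interval of the share reported, and 11 did not. Without the chromosome 9 block the lists held 33 (DMSO), 19 (9-cis retinoic acid), 35 (AM580) and 25 (AM+CD) peaks at chromosome starts. Cut to 200 peaks each, the CD3254 list held 35, and the share that met DMSO was 81.2% with 9-cis retinoic acid, 91.4% with CD3254 and 82.9% with AM+CD. The block's share of the peaks was then 48.6%. With a −log10 q of at least 10, 97.7% of AM580 peaks met DMSO. Without the 9-cis retinoic acid list, 52.0% of regions were in all lists left. In each case the alternative keeps fewer peaks or lists by construction. Start limits of 3200000 and 3500000 and an overlap of 50% of the shorter peak moved no value outside these bounds. The length minimum of 304 bp for DMSO peaks, and leaving out the block for regions of a single list, were chosen after seeing the data. No paired analysis was possible because each treatment has 1 list. Depth limits the lists unequally, and counts from lists of unequal length and depth are not a measure of binding.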
